A study of Mus musculus with 30 samples.

Results

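The 10 genes described here encode 5 Toll-like receptors (Tlr1, Tlr2, Tlr4, Tlr6 and Tlr13), their shared adaptor (Myd88) and 4 inflammasome proteins (Nlrp3, Pycard, Casp1 and Casp4). They were chosen by name, and every probe set of the array that carries one of these symbols was taken: 16 probe sets out of 45037 that are not array controls. Of the 16, 15 stayed after the 20% of probe sets with the lowest mean had been left out, and these were tested among 36029 probe sets. The 1 left out, Tlr4 probe set 1430695_at, had group means between 3.13 and 3.49 on the log2 scale. Where a gene has several tested probe sets, the brightest is quoted and the others are described beside it.

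RNA came from whole shaved back skin of female mice (strain 129-C57BL/6, aged 8 to 12 weeks), either WT or deficient in D6 (Ackr2, named Ccbp2 on the array), a receptor that binds inflammatory CC chemokines and removes them without signalling. TPA, a phorbol ester that inflames skin, was painted on the back at 50 uM in acetone 3 times, 24 hours apart, and skin was taken on day 1, 2, 4 or 6 after the last application. Control mice, called day 0, received acetone alone, although some of their labels read untreated. Each of the 10 genotype-by-day groups holds 3 arrays labelled as biological replicates, 30 arrays in all. The samples do not separate cell types: whole skin mixes epidermis, dermis, fat, muscle and infiltrating leukocytes. In such samples, fewer cells of a type and less RNA per cell cannot be told apart.

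Toll-like receptors are membrane proteins of leukocytes and epithelium that bind microbial lipids, proteins or nucleic acids, and most of them signal through the adaptor MYD88 to NF-kappaB. Inflammasomes are cytosolic complexes in which a sensor such as NLRP3 recruits the adaptor ASC, the product of Pycard, and through it caspase-1, which cleaves pro-IL-1beta and gasdermin D. Caspase-11, the product of mouse Casp4, binds lipopolysaccharide in the cytosol and cleaves gasdermin D itself. In skin, both systems are best known from macrophages, neutrophils and keratinocytes.

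Levels are log2 intensities, and a difference of 1 is a 2-fold change. Array medians lay between 6.53 and 6.73, and replicate arrays of a group had a median SD of 0.153. Of 3 tested D6 probe sets, 1422112_at was lower in D6-deficient skin by 1.91 at day 0 (adjusted p = 0.000195) and 1422111_at by 1.13 (adjusted p = 0.00787), while 1437937_at, the brightest, differed by -0.18 (adjusted p = 0.808). On later days 1422112_at passed on day 2 (-1.12, adjusted p = 0.0067) and day 4 (-1.90, adjusted p = 0.000184). It did not pass on day 1 (-0.95, adjusted p = 0.251) or day 6 (-1.16, adjusted p = 0.0634). The other D6 probe sets passed on none of days 1, 2, 4 and 6. Keratinocyte markers were present throughout, with a summed intensity over 8 tested markers of 14327 to 60899. The hybridization controls split the arrays into 17 bright and 13 dim ones, and 9 of 10 groups held both kinds.

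Coordinates and promoters are from RefSeq on GRCm38.p6, the reference strain and not these mice. Tlr1 (chr5:64924680-64933600) and Tlr6 (chr5:64953092-64970942) are neighbours 19.5 kb apart. Casp1 (chr9:5298517-5307281) and Casp4 (chr9:5308849-5336791) are 1.6 kb apart. Myd88 (chr9:119335934-119340018) lies 2.56 Mb from the D6 gene and is the member nearest to the targeted locus. Promoters were listed for 9 of the 10 genes, 13 start sites in all, and not for Tlr4. The 250 bases before the start are shown for Tlr13, which had the widest gap between genotypes on day 2, for Myd88 and Casp4, which rose in both genotypes with no difference called between them, and for Pycard, which took another course. Capitals mark a motif found by a search of both strands.
Tlr13 (chrX:106143025-106143274, plus strand): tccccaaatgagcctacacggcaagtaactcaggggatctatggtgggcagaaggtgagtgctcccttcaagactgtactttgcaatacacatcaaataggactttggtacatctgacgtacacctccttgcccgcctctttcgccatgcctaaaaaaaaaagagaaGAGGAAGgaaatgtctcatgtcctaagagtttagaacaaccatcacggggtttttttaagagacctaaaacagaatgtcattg
Myd88 (chr9:119340019-119340268, minus strand): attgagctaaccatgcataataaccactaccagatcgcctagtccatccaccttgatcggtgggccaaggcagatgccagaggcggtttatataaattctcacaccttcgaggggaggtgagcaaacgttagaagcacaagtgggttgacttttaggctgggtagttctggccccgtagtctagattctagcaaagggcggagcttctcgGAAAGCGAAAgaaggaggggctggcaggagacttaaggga
Pycard (chr7:127993868-127994117, minus strand): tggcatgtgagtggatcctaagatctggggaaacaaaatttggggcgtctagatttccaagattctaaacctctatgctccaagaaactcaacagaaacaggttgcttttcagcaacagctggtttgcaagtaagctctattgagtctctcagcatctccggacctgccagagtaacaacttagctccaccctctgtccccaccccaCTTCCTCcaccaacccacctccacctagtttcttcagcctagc
Casp4 (chr9:5308599-5308848, plus strand): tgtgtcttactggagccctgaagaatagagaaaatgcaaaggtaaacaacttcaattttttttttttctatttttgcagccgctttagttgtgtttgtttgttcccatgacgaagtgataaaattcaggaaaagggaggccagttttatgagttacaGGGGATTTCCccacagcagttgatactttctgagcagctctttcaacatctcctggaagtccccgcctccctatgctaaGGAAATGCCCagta

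The motif in the Tlr13 and Pycard promoters is that of PU.1, a myeloid transcription factor, searched as GAGGAAG. It was in 4 of the 13 member promoters (Tlr1, Tlr13, Nlrp3 and Pycard) and in 10.6% of all 32851 promoters. The motif in the Myd88 promoter is the interferon-stimulated response element, ISRE, found in 2 member promoters (Myd88 and Tlr6, where 2 matches overlap) and in 2.98% of all. Both marked sites of the Casp4 promoter are NF-kappaB motifs, found in 2 member promoters and in 1.41% of all promoters. Those 2 member promoters are overlapping windows of Casp4 start sites that hold the same sites, so they stand for 1 gene. The AP-1 motif, the element through which phorbol esters are known to act, searched as TGANTCA, was in 0 of the 13 and in 6.75% of all. These are matches of letters in a short window, and binding was not measured.

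Every member gene rose on at least 1 day after TPA in both genotypes by its quoted probe set, and the 5 receptors had risen by day 2 in D6-deficient skin but not in WT skin. In the counts that follow, a probe set passed when its adjusted p (limma, Benjamini-Hochberg over all tested probe sets) was under 0.05. In WT skin, 4 of 15 member probe sets passed against day 0 on day 1 (3 higher, 1 lower; background of all tested probe sets 24.0%), 3 on day 2 (all higher; background 26.1%), 11 on day 4 (10 higher, 1 lower; background 39.1%) and 3 on day 6 (1 higher, 2 lower; background 22.1%). In D6-deficient skin, 2 passed on day 1 (1 higher, 1 lower; background 36.3%), 11 on day 2 (10 higher, 1 lower; background 38.1%), 14 on day 4 (11 higher, 3 lower; background 41.1%) and 3 on day 6 (1 higher, 2 lower; background 31.7%). The share of members that passed was thus well above background in WT skin on day 4 and in D6-deficient skin on days 2 and 4, near it in WT skin on days 1, 2 and 6, and below it in D6-deficient skin on days 1 and 6. The median change over the 15 probe sets on day 2 was 0.33 for WT and 0.81 for D6-deficient skin, and 0.77 and 1.04 on day 4. Over all tested probe sets the 4 medians lay between -0.01 and 0.01.

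Tlr1 and Tlr6 form heterodimers with Tlr2 that recognise bacterial lipopeptides, and all 3 genes were at their highest in WT skin on day 4 but had already risen in D6-deficient skin on day 2. The level of Tlr1 (1449049_at) in WT skin was 7.18, 6.72 and 6.15 on day 0, 7.06, 7.49 and 6.80 on day 2 and 7.81, 8.12 and 8.55 on day 4. The D6-deficient arrays were at 6.39, 6.29 and 6.32 on day 0, 9.14, 8.66 and 8.57 on day 2 and 8.78, 8.35 and 8.44 on day 4. All 3 D6-deficient arrays of day 2 lay above every WT array of any day, and the day 4 arrays of the genotypes overlapped. Tlr1 rose by 1.48 ± 0.25 (SE, 3 arrays per group; adjusted p = 3.94e-05) in WT skin on day 4, against 0.43 ± 0.25 (adjusted p = 0.206) on day 2, and by 2.46 ± 0.25 (adjusted p = 4.59e-08), or 5.49-fold, in D6-deficient skin on day 2.

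Tlr2 (1419132_at) took the same course. Its level in WT skin was 7.33, 7.51 and 7.61 on day 0, 7.63, 7.78 and 7.68 on day 2 and 8.42, 8.08 and 8.73 on day 4. Its D6-deficient level was 7.15, 6.80 and 7.22 on day 0, 8.78, 8.65 and 8.99 on day 2 and 8.32, 8.67 and 8.64 on day 4. Between genotypes the day 2 arrays were apart and the day 4 arrays overlapped. Tlr2 rose by 0.93 ± 0.16 (adjusted p = 4.36e-05) in WT skin on day 4 and by 1.75 ± 0.16 (adjusted p = 8.75e-09), or 3.36-fold, in D6-deficient skin on day 2.

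Tlr6 (1421352_at) was dimmer and moved alongside them. Its WT level was 5.59, 6.17 and 5.88 on day 0, 6.11, 6.50 and 6.03 on day 2 and 7.05, 7.10 and 7.51 on day 4. Its D6-deficient level was 5.62, 5.64 and 5.76 on day 0, 7.47, 7.16 and 6.98 on day 2 and 7.19, 7.64 and 7.56 on day 4. The D6-deficient arrays of day 2 overlapped the WT arrays of day 4 and lay above all WT arrays of day 2. Tlr6 rose by 1.34 ± 0.17 (adjusted p = 9.49e-07) in WT skin on day 4 and by 1.53 ± 0.17 (adjusted p = 1.66e-07) in D6-deficient skin on day 2.

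Tlr13, an endosomal receptor of mice for bacterial ribosomal RNA, showed the widest separation of the genotypes on day 2. In WT skin, 1457753_at was at 7.25, 6.45 and 6.23 on day 0, 7.14, 7.27 and 6.67 on day 2 and 8.74, 8.42 and 9.08 on day 4. In D6-deficient skin it was at 6.84, 6.65 and 6.40 on day 0, 9.12, 9.0 and 8.92 on day 2 and 8.93, 9.21 and 8.94 on day 4. The D6-deficient gene thus stood on day 2 at the level it held on day 4, with overlapping arrays. It rose by 2.11 ± 0.32 (adjusted p = 1.32e-05), or 4.31-fold, in WT skin on day 4 and by 2.39 ± 0.32 (adjusted p = 2.72e-06), or 5.23-fold, in D6-deficient skin on day 2. By day 6 its arrays had spread to 5.61 to 6.46 in WT and 5.50 to 7.04 in D6-deficient skin, overlapping those of day 0.

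Tlr4, the lipopolysaccharide receptor, was the single receptor that rose further in D6-deficient skin from day 2 to day 4, by 0.69 ± 0.16 (adjusted p = 0.00346). Probe set 1418163_at was at 7.89, 7.71 and 7.75 in WT skin on day 0, 7.68, 7.62 and 7.91 on day 2 and 8.79, 8.68 and 8.89 on day 4. The D6-deficient arrays were at 7.17, 7.20 and 7.16 on day 0, 8.16, 8.36 and 8.09 on day 2 and 8.75, 8.99 and 8.95 on day 4. All 3 D6-deficient control arrays lay below the WT control arrays, and all 3 D6-deficient arrays of day 2 lay above the WT arrays of day 2. Tlr4 rose by 1.00 ± 0.16 (adjusted p = 2.4e-05) in WT skin on day 4, by 1.03 ± 0.16 (adjusted p = 1.93e-05) in D6-deficient skin on day 2 and by 1.72 ± 0.16 (adjusted p = 8.08e-09) on day 4. In WT skin it changed by -0.05 ± 0.16 (adjusted p = 0.871) on day 2. The tested probe sets 1418162_at and 1442827_at also had their highest mean on day 4 in both genotypes, and 1442827_at fell by 0.88 ± 0.25 (adjusted p = 0.0121) in WT skin on day 1.

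Myd88 rose on days 2 and 4 in both genotypes, to overlapping levels. Probe set 1419272_at was at 9.34, 9.47 and 9.32 in WT skin on day 0, 10.02, 10.11 and 9.67 on day 2 and 11.05, 10.80 and 11.09 on day 4. Its D6-deficient level was 9.60, 9.42 and 9.29 on day 0, 10.36, 9.94 and 10.25 on day 2 and 10.98, 10.82 and 10.98 on day 4. The genotypes overlapped on each of these days. Myd88 rose by 0.56 ± 0.12 (adjusted p = 0.00172) in WT and 0.75 ± 0.12 (adjusted p = 4.55e-05) in D6-deficient skin on day 2, and by 1.60 ± 0.12 (adjusted p = 9.56e-10) and 1.49 ± 0.12 (adjusted p = 1.67e-09) on day 4. The difference between genotypes was 0.25 on day 2 (95% confidence interval -0.01 to 0.51, adjusted p = 0.351) and -0.05 on day 4 (-0.31 to 0.20, adjusted p = 0.954).

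**Figure D1:**
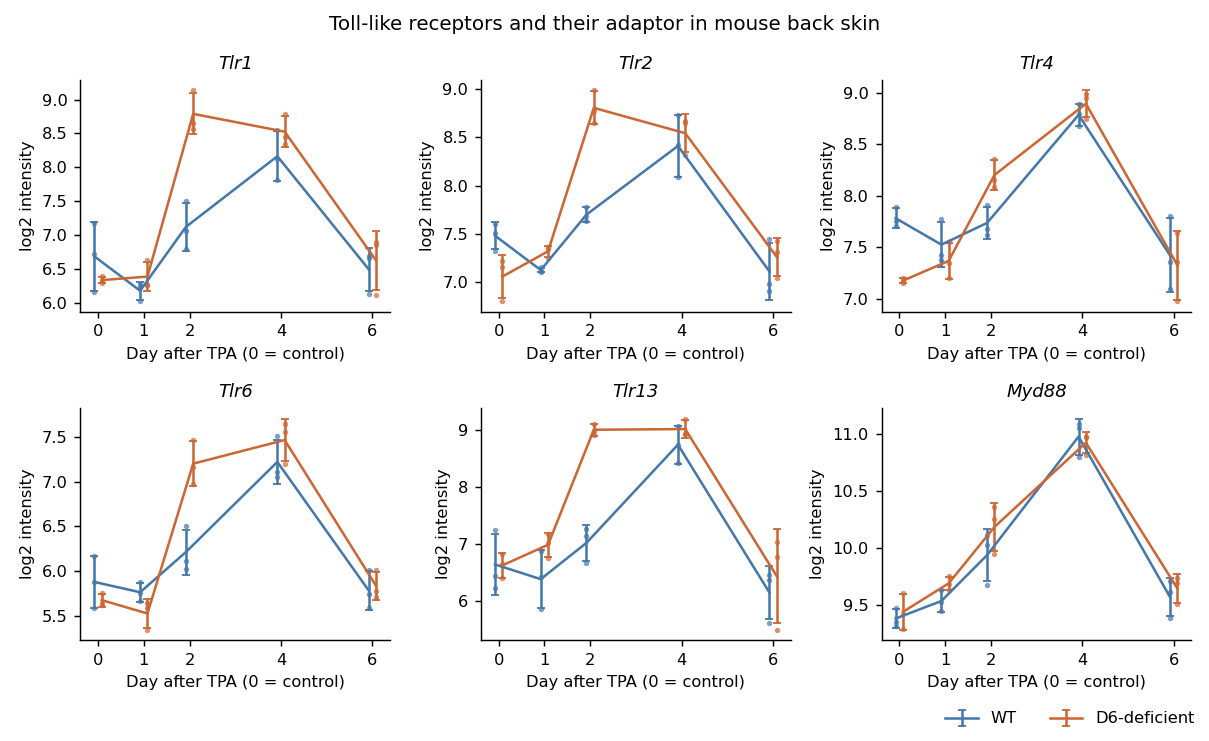
Log2 intensity of the 5 Toll-like receptor genes and Myd88 by day (day 0 is the acetone control) in WT and D6-deficient skin, with 1 point per array, and lines and bars for the mean and SD of 3 arrays. On day 2 the D6-deficient arrays stand above the WT arrays for each receptor (Tlr13 at 8.92 to 9.12 against 6.67 to 7.27), while for Myd88 they overlap, and by day 4 the genotypes overlap in all 6 panels.

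The 4 inflammasome genes did not move together. Nlrp3, the sensor, followed the receptors with a smaller change. Its level (1425412_at) in WT skin was 6.60, 5.97 and 6.16 on day 0, 6.38, 7.0 and 6.22 on day 2 and 7.14, 7.02 and 6.67 on day 4. In D6-deficient skin it was 6.24, 6.59 and 6.02 on day 0, 7.29, 7.35 and 6.95 on day 2 and 7.14, 7.09 and 7.08 on day 4. On day 2 the highest WT array overlapped the lowest D6-deficient array. Nlrp3 rose by 0.70 ± 0.19 (adjusted p = 0.00451) in WT skin on day 4, by 0.91 ± 0.19 (adjusted p = 0.000465) in D6-deficient skin on day 2 and by 0.82 ± 0.19 (adjusted p = 0.00108) on day 4.

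Pycard, whose product ASC links sensors to caspase-1, had its highest mean on day 2 in both genotypes and was lower again on day 4. Its brightest probe set, 1417346_at, was at 10.87 to 11.07 in WT skin on day 0, 12.18, 12.50 and 12.23 on day 2 and 11.27, 11.51 and 11.35 on day 4. The D6-deficient arrays were at 11.51, 11.32 and 11.35 on day 0, 12.07, 12.22 and 12.31 on day 2 and 10.63, 10.92 and 11.03 on day 4. On day 0 all D6-deficient arrays lay above the WT arrays, on day 2 they overlapped, and on day 4 all D6-deficient arrays lay below. Against day 0, Pycard rose by 1.32 ± 0.13 (adjusted p = 8.19e-08) in WT and by 0.81 ± 0.13 (adjusted p = 2.94e-05) in D6-deficient skin on day 2. On day 1 it was at 12.03, 11.76 and 11.74 in WT skin, a rise of 0.86 ± 0.13 (adjusted p = 3.7e-05), and at 11.60, 11.43 and 11.86 in D6-deficient skin, a change of 0.23 ± 0.13 (adjusted p = 0.167). The difference between these changes did not pass on day 1. On day 6 the WT level was 0.85 ± 0.13 above day 0 (adjusted p = 6.86e-05) and the D6-deficient level 0.22 ± 0.13 (adjusted p = 0.211). On day 4 it was still 0.40 ± 0.13 above day 0 in WT skin (adjusted p = 0.0174) and had fallen by 0.54 ± 0.13 below it in D6-deficient skin (adjusted p = 0.0018). The WT value of day 4 missed the threshold without control replicate 3 (adjusted p = 0.0762) or day 4 replicate 2 (adjusted p = 0.0802).

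The other Pycard probe sets were dimmer, and their day 2 values in WT skin did not pass. In WT skin on day 2, 1446926_at was 0.53 ± 0.21 (adjusted p = 0.0717), 1435973_at 0.33 ± 0.14 (adjusted p = 0.0828) and 1417347_at 0.18 ± 0.12 (adjusted p = 0.294) above day 0, and the arrays of the first pair did not overlap those of day 0. In D6-deficient skin on day 2, 1446926_at was at 0.26 ± 0.21 (adjusted p = 0.366) and 1417347_at at 0.06 ± 0.12 (adjusted p = 0.733). On 1435973_at, the level fell by 0.66 ± 0.14 (adjusted p = 0.000531) in WT and by 1.38 ± 0.14 (adjusted p = 3.3e-08) in D6-deficient skin on day 4, and by 0.50 ± 0.14 (adjusted p = 0.00616) in D6-deficient skin on day 2. On 1417347_at it fell by 0.52 ± 0.12 (adjusted p = 0.000953) in D6-deficient skin on day 4. That probe set is close to the filter at 3.73, with D6-deficient means of 4.20 on day 0 and 3.68 on day 4. A drop below day 0 in D6-deficient skin on day 4 was thus measured by 3 of the 4 probe sets, and the fourth, 1446926_at, changed by -0.44 ± 0.21 (adjusted p = 0.103). With the mean of the 4 probe sets in place of the brightest, Pycard changed by -0.09 (adjusted p = 0.561) in WT skin on day 4 and by 0.16 (adjusted p = 0.31) in D6-deficient skin on day 2. Keratinocyte markers were also low on day 4 in D6-deficient skin, where 6 of 8 were lower than on day 0 and 0 higher, at a median change of -1.10. Of all tested probe sets, 41.1% passed there, 22.4% as lower. In WT skin on day 4, 3 were lower and 1 higher, at a median change of 0.01, where 39.1% of all passed, 21.8% as lower. Their summed intensity on day 4 was 21944 to 28424 in WT and 14327 to 19938 in D6-deficient skin, against 34356 to 35532 and 47068 to 51484 on day 0. Their part in the Pycard values was not tested.

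Casp1, the caspase that activates IL-1beta, had its highest mean on day 2 in both genotypes. Probe set 1449265_at was at 9.15, 9.11 and 9.10 in WT skin on day 0, 9.58, 9.58 and 9.83 on day 2 and 9.38, 9.40 and 9.62 on day 4. Its D6-deficient level was 8.57, 9.0 and 8.66 on day 0, 9.96, 9.84 and 9.99 on day 2 and 8.81, 9.50 and 9.38 on day 4. The D6-deficient controls lay below the WT controls, and on day 2 the D6-deficient arrays lay just above the WT arrays. Casp1 rose by 0.54 ± 0.16 (adjusted p = 0.0126) in WT and by 1.18 ± 0.16 (adjusted p = 2.43e-06) in D6-deficient skin on day 2. It was also higher than on day 0 in D6-deficient skin on day 1, by 0.82 ± 0.16 (adjusted p = 0.000277). Its WT rise on day 2 missed the threshold without day 2 replicate 3 (adjusted p = 0.0632), and its WT rise on day 1, of 0.45 ± 0.16 (adjusted p = 0.0409), missed it without any 1 of the 6 arrays (adjusted p = 0.0606 to 0.123). In D6-deficient skin on day 4 the rise of 0.48 ± 0.16 (adjusted p = 0.0158) was lost without control replicate 1 or 3 or day 4 replicate 2 or 3, with an adjusted p of up to 0.115.

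Casp4 rose on day 4 in both genotypes, and 1 WT array stood high on that day. Probe set 1449591_at was at 6.37, 6.98 and 6.31 in WT skin on day 0, 6.65, 6.82 and 7.94 on day 2 and 7.38, 7.01 and 8.47 on day 4. In D6-deficient skin it was at 6.76, 6.70 and 6.62 on day 0, 7.12, 6.60 and 6.95 on day 2 and 7.56, 7.71 and 7.49 on day 4. The genotypes overlapped on each of these days. Casp4 rose on day 4 by 1.07 ± 0.33 (adjusted p = 0.0117) in WT and 0.89 ± 0.33 (adjusted p = 0.0316) in D6-deficient skin. The WT rise was 0.64 without day 4 replicate 3 (adjusted p = 0.134) and 0.95 without control replicate 3 (adjusted p = 0.0517), and the D6-deficient rise missed the threshold without any 1 of its 6 arrays (adjusted p = 0.0528 to 0.0897).

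**Figure D2:**
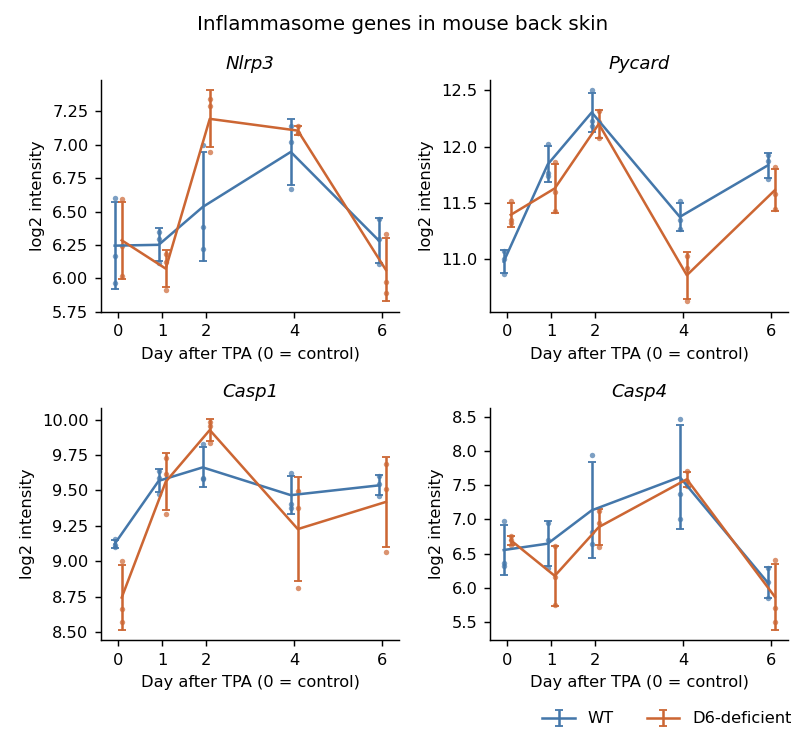
Log2 intensity of Nlrp3, Pycard, Casp1 and Casp4 by day (day 0 is the acetone control) in WT and D6-deficient skin, with 1 point per array, and lines and bars for the mean and SD of 3 arrays. Pycard has its highest mean on day 2 in both genotypes (WT 12.30, D6-deficient 12.20) and drops on day 4, while Casp4 has its highest mean on day 4.

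The genotypes were then compared on each day. Day 2 was the only one of the 5 days on which members passed. On day 0, 0 of 15 probe sets passed (background 1.57%). In limma 6 had an unadjusted p under 0.05, as had 5146 of all 36029 tested probe sets. The t-test of the study's methods called 0 after Benjamini-Hochberg adjustment. Tlr4 came nearest, at 0.61 ± 0.16 lower in D6-deficient skin (adjusted p = 0.0528), and it passed when limma was fitted to these 6 arrays alone (adjusted p = 0.0411), with the lowest 40% of probe sets left out (adjusted p = 0.0458) or with the hybridization control set as a covariate (adjusted p = 0.029). On day 1 none passed (background 0.0555%), on day 4 none (background 0.513%) and on day 6 none (background 0.125%). At an unadjusted p under 0.05 there were 2, 3 and 1 member probe sets on these days. Over all 36029 tested probe sets there were 2887, 3620 and 3015. The adjusted t-test also called 0 members on each of these days.

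On day 2, 6 of 15 probe sets passed (5 higher and 1 lower in D6-deficient skin; background 4.45%), at a median difference over the 15 of 0.46, against -0.02 over all tested probe sets. Tlr13 was 1.99 ± 0.32 higher in D6-deficient skin (adjusted p = 0.000333), a 3.97-fold difference. Tlr1 was 1.67 ± 0.25 higher (adjusted p = 0.000108) and Tlr2 1.11 ± 0.16 higher (adjusted p = 6.51e-05). Tlr6 was 0.99 ± 0.17 higher (adjusted p = 0.000554). These 4 receptors passed without any 1 of the 6 arrays. Within the bright arrays the differences of the 4 were 0.71 to 1.95 (1 D6-deficient against 2 WT arrays), and within the dim ones 1.08 to 1.92 (2 against 1). Nlrp3 was 0.66 ± 0.19 higher (adjusted p = 0.0437), and it missed the threshold without WT replicate 1 or 3 or D6-deficient replicate 1 or 2 (adjusted p = 0.128 to 0.237), with the hybridization control set as a covariate (adjusted p = 0.0584), with array medians subtracted (adjusted p = 0.053) and with these 6 arrays alone (adjusted p = 0.127). The probe set that was lower was 1435973_at of Pycard, at 0.51 ± 0.14 below WT (adjusted p = 0.0354), while the brightest Pycard probe set differed by -0.10 ± 0.13 (adjusted p = 0.793). The t-test of the study's methods called 0 of the 15 after adjustment on day 2, and 2 (Tlr1 and Tlr13) at its unadjusted p with a 3-fold change.

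The remaining members did not pass on day 2. Tlr4 was at 0.46 (95% confidence interval 0.14 to 0.79, adjusted p = 0.111), Casp1 at 0.26 (-0.06 to 0.59, adjusted p = 0.463) and Casp4 at -0.25 (-0.92 to 0.43, adjusted p = 0.806). The intervals of Casp1 and Myd88 both end below the estimate for each of the 4 receptors, whereas Casp4 is bounded only loosely.

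**Figure D3:**
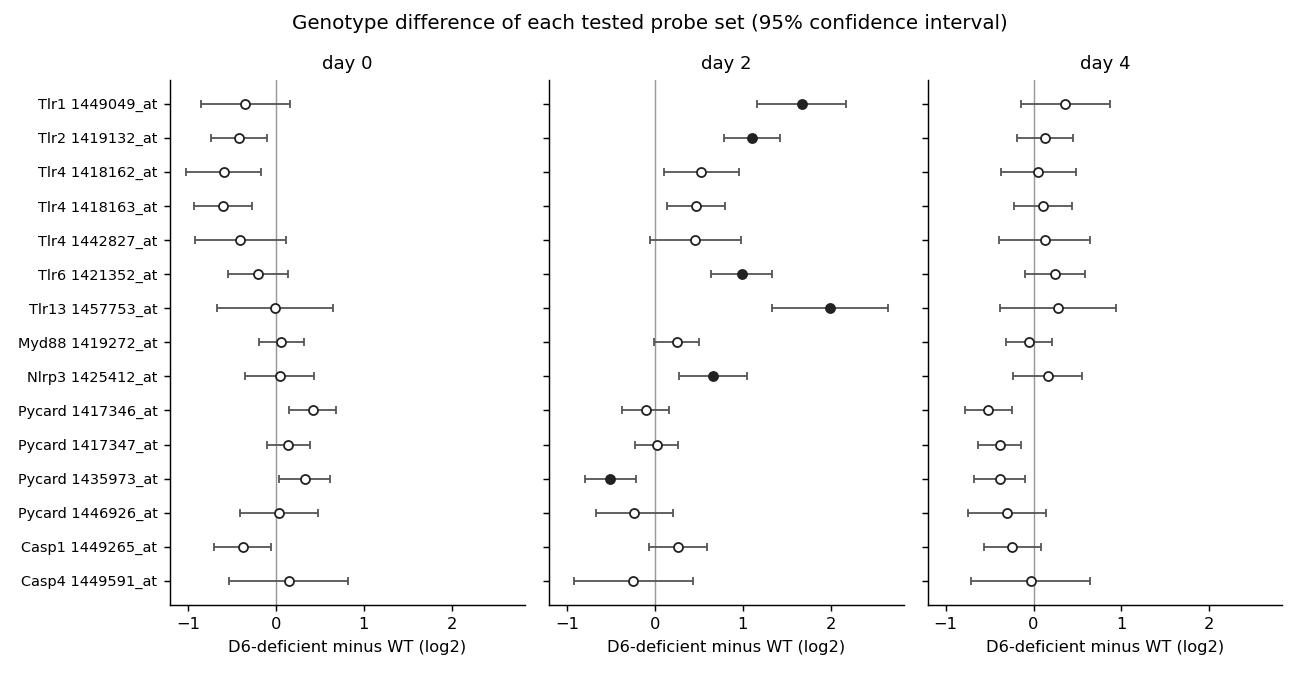
Difference between D6-deficient and WT skin (log2, x axis) on days 0, 2 and 4 for each of the 15 tested probe sets, with 95% confidence intervals, filled where the adjusted p is under 0.05. On day 2, 5 probe sets are filled on the right (Tlr1, Tlr2, Tlr6, Tlr13 and Nlrp3) and 1 on the left (Pycard 1435973_at), and on days 0 and 4 none is filled.

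The change from day 0 was also compared between genotypes, which takes the levels of the controls into account. On day 2 the change differed for 7 of 15 probe sets (6 more positive and 1 more negative in D6-deficient skin; background 5.40%). The difference in change was 2.02 ± 0.35 for Tlr1 (adjusted p = 0.000937), 2.01 ± 0.45 for Tlr13 (adjusted p = 0.00823), 1.53 ± 0.22 for Tlr2 (adjusted p = 0.000159) and 1.19 ± 0.24 for Tlr6 (adjusted p = 0.00299). Tlr4, at 1.07 ± 0.23 (adjusted p = 0.00494), passed as well on this scale, and so did its probe set 1418162_at, so that all 5 receptors passed. The Tlr4 value takes in lower D6-deficient controls (mean 7.18 against 7.78 in WT) as well as the day 2 levels (8.20 against 7.74). Its day 2 level alone did not pass between genotypes. Nlrp3 was at 0.62 ± 0.27 (adjusted p = 0.216), Casp1 at 0.64 ± 0.22 (adjusted p = 0.0984) and Myd88 at 0.19 ± 0.18 (adjusted p = 0.676). Casp1 passed with only the arrays of this contrast (adjusted p = 0.045). The t-test of the study's methods, on values set to each genotype's control median, called 7 after adjustment, but not the same 7: Tlr6 missed the threshold (adjusted p = 0.0531) and Casp1 passed (adjusted p = 0.0389). That t-test takes the control median as fixed, so the spread of the control arrays does not enter it, as it does in limma.

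On day 4 the change differed for 1 of 15 probe sets (background 0.608%), the brightest of Pycard, at -0.93 ± 0.18 (adjusted p = 0.0202). It missed the threshold in 5 of the 12 fits that each left out 1 array (adjusted p = 0.0501 to 0.072), namely without WT control replicate 3, WT day 4 replicate 2, D6-deficient control replicate 1 or 3, or D6-deficient day 4 replicate 1, and the adjusted t-test called 0. With the mean of the 4 Pycard probe sets it was -0.63 (adjusted p = 0.0801) and missed the threshold as well. On day 1 (background 0.0194%) and day 6 (background 0.0250%) none passed, and 0 by the adjusted t-test. At an unadjusted p under 0.05 there were 4 and 5, against 3494 and 2886 of all 36029 tested probe sets.

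Steps between neighbouring days place the rise and the fall. From day 1 to day 2, 0 of 15 probe sets passed in WT skin (background 1.20%) and 10 in D6-deficient skin, all higher (background 10.4%). In WT skin 6 had an unadjusted p under 0.05, against 4861 of all 36029 tested probe sets, and the adjusted t-test called 0. From day 2 to day 4, 11 passed in WT skin (8 higher, 3 lower; background 14.5%) and 8 in D6-deficient skin (3 higher, 5 lower; background 16.3%). The 3 lower ones in WT skin were all Pycard, and the 3 higher ones in D6-deficient skin were Myd88 and a pair of Tlr4 probe sets. From day 4 to day 6, 12 passed in WT skin (2 higher, 10 lower; background 22.1%) and 12 in D6-deficient skin (2 higher, 10 lower; background 31.4%), and the 2 higher ones were Pycard in both. The adjusted t-test called 0 of the WT step from day 2 to day 4.

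Neutrophil markers separated the genotypes on day 2 as the receptors did, but part of their rise came earlier. Against day 0, 6 of 9 were higher and 1 lower in D6-deficient skin on day 1 (background 36.3%), at a summed intensity of 4771 to 6305. In WT skin on day 2, 4 were higher and 1 lower (background 26.1%). No receptor had risen by the adjusted p in either comparison. Stfa2l1 and Il1r2 were the brightest of these markers, at means of 10.57 and 10.34, and weigh most in the sums. The mean log2 level of the neutrophil markers in D6-deficient skin was 6.26 to 6.37 on day 0 and 7.52 to 8.16 on day 1. In WT skin it was 6.10 to 6.35 on day 0 and 7.34 to 8.10 on day 2. Monocyte and macrophage markers moved with the receptors on day 2 but less on day 4. Over 9 tested neutrophil markers, the summed intensity on day 2 was 7428 to 7722 in WT and 10890 to 16179 in D6-deficient skin, against 10829 to 16437 and 14251 to 15772 on day 4 and 1834 to 2574 over both genotypes on day 0. Of the 9, 7 were higher in D6-deficient skin on day 2 and 0 lower, and this and the marker counts between genotypes that follow stand beside the 4.45% of all tested probe sets. Over 12 monocyte and macrophage markers the summed intensity was 36908 to 40195 in WT and 49377 to 53737 in D6-deficient skin on day 2, with 4 higher and 0 lower. On day 4 it was 35080 to 43642 in WT skin, against 37573 to 41433 on day 0. In D6-deficient skin it was 30235 to 31812 on day 4, against 25102 to 32690.5 on day 0. There 8 of 12 were lower and 2 higher on day 4 than on day 2 (background 16.3%). The mean log2 level of these markers, however, lay above day 0 on day 4 in both genotypes. It was 11.03 to 11.36 against 10.63 to 10.965 in WT skin, and 10.68 to 10.85 against 10.09 to 10.445 in D6-deficient skin. No marker is at 0, since the array gives a positive intensity to every probe set. Mast cell markers summed to 6852 to 7727 in WT and 7964 to 10845 in D6-deficient skin on day 2, and 1 of 7 was higher. Of 7 T cell markers, 0 passed between genotypes on day 2, and of 6 skeletal muscle markers, 2 were lower and 4 did not pass, with sums of 25674 to 28457 in D6-deficient and 36825 to 41519 in WT skin. The part of these markers in the member values was not tested.

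Over the 30 arrays, the members fell into a group that moved together and 3 genes that did so less. Pearson r between log2 levels was 0.82 to 0.94 over the 10 pairs of receptors, 0.82 to 0.89 between receptors and Myd88 and 0.77 to 0.88 between receptors and Nlrp3. It was 0.59 to 0.76 with Casp4, 0.21 to 0.37 with Casp1 and -0.31 to -0.04 with Pycard, while Pycard and Casp1 correlated at 0.66. These values describe 30 arrays that share days and genotypes, so they follow the group means. Among all named genes outside the list, the most alike were Fyb for Tlr1 (r = 0.95), Igsf6 for Tlr2 (0.96), Fth1 for Tlr4 (0.96), Trem1 for Tlr6 (0.97) and Fcgr4 for Tlr13 (0.97). For the others they were Tmem173 for Myd88 (0.98), Clec4e for Nlrp3 (0.90), Ckmt1 for Pycard (0.93), AI413582 for Casp1 (0.90) and Treml2 for Casp4 (0.89). Fpr2, a formyl peptide receptor of phagocytes, was among the 3 most alike genes of Tlr1, Tlr13 and Nlrp3. Csf3r, 1 of the neutrophil markers, was among the 3 most alike genes of Tlr6 (r = 0.96).

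**Figure D4:**
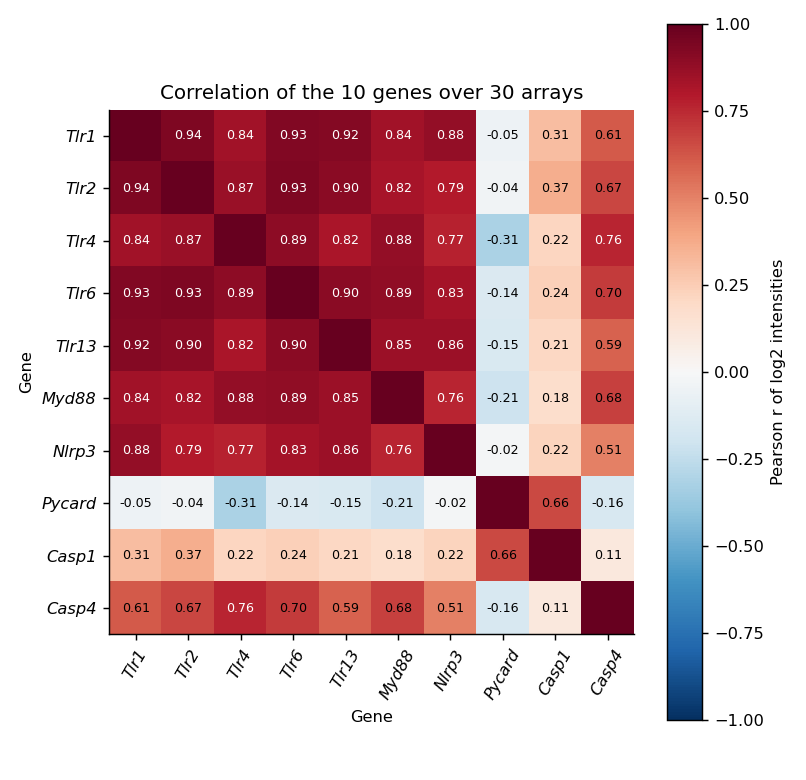
Pearson correlation of log2 intensity over 30 arrays for each pair of the 10 genes, both axes listing the genes and colour giving r from -1 to 1. The 5 receptors, Myd88 and Nlrp3 form a block of high values (receptor pairs 0.82 to 0.94), and Pycard stands apart with values from -0.31 to -0.04 against the receptors.

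Other genes of both pathways were counted from a list of 56, of which 49 were tested by their brightest probe set. On day 2, 11 were higher in D6-deficient skin and 1 lower, at a median difference of 0.11 (background 4.45%). On days 1, 4 and 6 none passed (background 0.0555%, 0.513% and 0.125%). By class, this was 2 of 6 further Toll-like receptors, 3 of 6 coreceptors, 2 of 5 adaptors and chaperones, 0 of 12 signalling intermediates, 1 of 10 other sensors and 3 of 10 inflammasome effectors that were higher, and 1 sensor that was lower. Against day 0 on day 2, 17 of 49 were higher and 5 lower in D6-deficient skin (background 38.1%). In WT skin 8 were higher and 4 lower (background 26.1%). Counted in either direction, both were near the share of all probe sets, but the directions differed. Of all 36029 tested probe sets, 6307 were higher and 7409 lower in D6-deficient skin, and 3979 and 5413 in WT skin. In both genotypes the 49 genes thus leaned to higher, whereas all tested probe sets leaned to lower.

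Cd14, which hands lipopolysaccharide to TLR4, behaved as the receptors did. It was at 9.24, 10.35 and 9.05 in WT and 11.19, 11.46 and 10.83 in D6-deficient skin on day 2, a difference of 1.62 ± 0.32 (adjusted p = 0.00231), with no overlap. Il1b, the main substrate of caspase-1, was at 9.88, 11.17 and 9.39 in WT and 12.11, 12.05 and 11.52 in D6-deficient skin, 1.75 ± 0.32 higher (adjusted p = 0.00128). Both genes were at or near these D6-deficient levels in WT skin on day 4, where Cd14 was at 10.36 to 11.18 and Il1b at 11.70 to 11.84.

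Tlr7, an endosomal receptor for single-stranded RNA, did not follow the members on day 4. It was at 7.77, 7.80 and 7.73 in WT and 6.75, 6.77 and 7.11 in D6-deficient controls, 0.89 ± 0.19 lower (adjusted p = 0.0186), and was the single gene of the 49 that passed on day 0. On day 2 it was at 7.48, 7.44 and 7.55 in WT and 8.12, 8.32 and 8.46 in D6-deficient skin, 0.81 ± 0.19 higher (adjusted p = 0.0131). On day 4 it had dropped to 6.26 to 6.32 in WT and 5.99 to 6.72 in D6-deficient skin, whereas all 5 member receptors were above their controls on that day. Tlr8 was 0.94 ± 0.23 higher in D6-deficient skin on day 2 (adjusted p = 0.0154). On day 4 Tlr8 was 0.36 ± 0.23 above day 0 in WT (adjusted p = 0.226) and had risen by 0.69 ± 0.23 in D6-deficient skin (adjusted p = 0.0191). Unc93b1, which carries nucleic acid receptors to endosomes, was 0.65 ± 0.16 higher (adjusted p = 0.0163).

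Gsdmd, the pore-forming substrate of caspase-1 and caspase-11, was at 8.10, 8.24 and 8.10 in WT and 8.86, 8.60 and 8.91 in D6-deficient skin on day 2, 0.65 ± 0.14 higher (adjusted p = 0.00547). Naip2, a sensor of proteins of bacterial secretion systems, was 0.60 ± 0.13 higher (adjusted p = 0.00459). Casp8, Tirap, Cd180 and Ly86 were the other genes that were higher, by 0.37 to 0.88. The 1 that was lower was Nlrp10, an NLR protein known from the epidermis, at 8.56, 8.23 and 8.85 in WT and 7.52, 6.72 and 7.31 in D6-deficient skin on day 2, 1.37 ± 0.30 below WT (adjusted p = 0.0067). Nlrp10 fell by 2.46 ± 0.30 (adjusted p = 5.23e-07) in D6-deficient and by 1.19 ± 0.30 (adjusted p = 0.00266) in WT skin on day 4, the day on which the summed keratinocyte markers were lowest in both genotypes. Mefv, a sensor known from neutrophils and other myeloid cells, rose on day 4 in both genotypes. The rise was 1.59 ± 0.23 in WT (adjusted p = 8.3e-06) and 1.78 ± 0.23 in D6-deficient skin (adjusted p = 1.44e-06). Nlrp12, another such sensor, was 2.05 ± 0.19 above day 0 in WT and 2.30 ± 0.19 in D6-deficient skin on day 4. Its control means of 3.21 in both genotypes lay under the filter at 3.73. Nlrp12 was tested only through the groups in which it was high, so its p-values are left out. The change from day 0 to day 2 was lower in D6-deficient than in WT skin for Peli1 and Panx1. For Peli1, a ubiquitin ligase of receptor signalling, it was lower by 0.67 ± 0.16 (adjusted p = 0.0151). For Panx1, a channel that releases ATP, it was lower by 0.54 ± 0.15 (adjusted p = 0.0387). Their day 2 levels did not pass between genotypes. In controls the D6-deficient means were higher than WT, at 9.90 against 9.57 for Peli1 and 8.22 against 7.84 for Panx1.

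**Figure D5:**
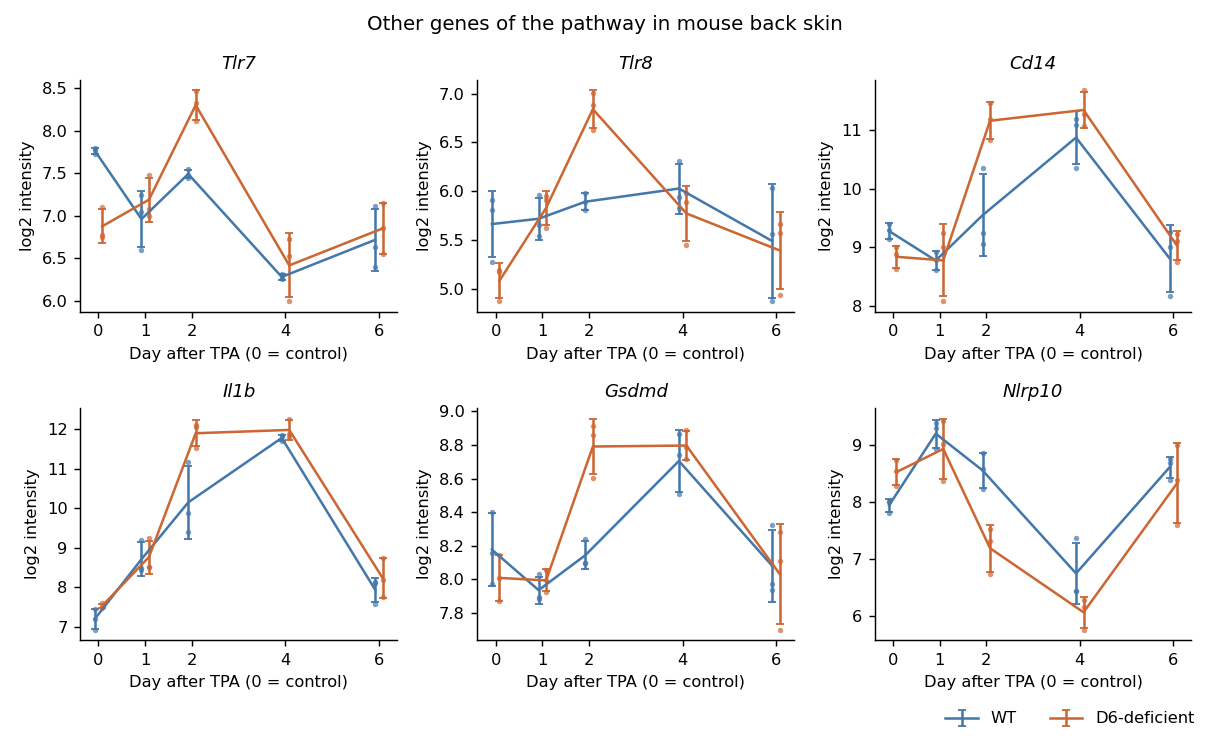
Log2 intensity of 6 other pathway genes (Tlr7, Tlr8, Cd14, Il1b, Gsdmd and Nlrp10) by day (day 0 is the acetone control) in WT and D6-deficient skin, with 1 point per array, and lines and bars for the mean and SD of 3 arrays. On day 2 the D6-deficient arrays of Nlrp10 lie below the WT arrays and those of the other 5 genes above, and on day 4 Tlr7 lies at 5.99 to 6.72 over both genotypes.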

How the data were processed

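Whole dorsal skin RNA from 30 mouse samples, 3 per genotype and day, had been hybridized to Affymetrix Mouse430_2 arrays. The authors deposited linear intensity values made by robust multiarray analysis (RMA), which corrects background, makes the distributions of all arrays equal and summarizes probes into 1 value per probe set. The second deposited text is a sample sheet and holds no expression values. RMA removes any shift common to a whole array, and arrays give no read depth, so the number of arrays limits the precision.

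Here the intensity values were converted to log2, 64 array controls of 45101 probe sets were removed, and the 20% with the lowest mean (under 3.73, 9008 probe sets) were left out. One mean per group was fitted over all 30 arrays with limma 3.58.1 in R 4.3.3 (lmFit and eBayes), and p-values were adjusted by Benjamini-Hochberg over all tested probe sets. Tables and plots were made with Python 3.11.15, pandas 2.3.3, numpy 2.4.6 and matplotlib 3.10.9. An exact permutation test of 3 against 3 cannot go below p = 0.1 and was not used. Every probe set of each member gene was reported, and the brightest was quoted. Pathway and marker lists used the brightest tested probe set of each gene, and other pathway genes were named where they passed between genotypes, in level or in change from day 0, or passed with an over 3-fold change against day 0. The members and lists were chosen with earlier results of these data known. In the fit over all 30 arrays, SEs and p-values rest on a spread between replicate arrays that is estimated for each probe set and shared by all groups. They do not rest on the 3 arrays of a named group alone.

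The alternatives were other filters, array medians subtracted, only the arrays of a contrast, the replicate number as a block, the hybridization control set as a covariate, a 3-fold threshold, the t-test of the study's methods, the mean of a gene's probe sets, and each array left out in turn. The fit was tested on simulated data.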

Additional observations from a re-analysis of the deposited data

Results flagged for a closer look

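For 8 of the member probe sets, the change from day 0 differed between the genotypes by a test of the difference itself (limma, adjusted over all tested probe sets). On day 2 the change in D6-deficient skin exceeded that in WT skin by 2.02 ± 0.35 (SE, log2) for Tlr1 (adjusted p = 0.000937), 2.01 ± 0.45 for Tlr13 (adjusted p = 0.00823), 1.53 ± 0.22 for Tlr2 (adjusted p = 0.000159) and 1.19 ± 0.24 for Tlr6 (adjusted p = 0.00299). For Tlr4 it did so by 1.07 ± 0.23 on 1418163_at (adjusted p = 0.00494) and 1.13 ± 0.29 on 1418162_at (adjusted p = 0.0219). These Tlr4 values take in lower D6-deficient controls, and the day 2 level alone did not pass between genotypes. Pycard went the other way, by -0.83 ± 0.20 on 1435973_at on day 2 (adjusted p = 0.012) and by -0.93 ± 0.18 on 1417346_at on day 4 (adjusted p = 0.0202), where the mean of the gene's probe sets missed the threshold (-0.63, adjusted p = 0.0801). No explanation of these differences was tested.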

How the results depend on the processing

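The day 2 differences of Tlr1, Tlr2, Tlr6 and Tlr13 between genotypes kept their direction under every alternative run, and passed in all of them except the adjusted t-test and, for Tlr2 and Tlr6, the 3-fold thresholds. With no filter, all 230 gene values kept their call. Among gene values that had passed, the single direction that turned was Pycard in WT skin on day 4, at -0.092 with the mean of its probe sets. Of 15 probe sets, 5 passed in WT skin on day 2 with array medians subtracted. With only the arrays of each contrast, 2 passed in WT skin on day 1, 5 in WT on day 2, 1 in D6-deficient skin on day 6 and 1 between genotypes on day 0. The hybridization set as a covariate gave 1 between genotypes on day 0. Leaving out the lowest 40% gave 1 there and 1 from WT day 1 to day 2.

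The 3-fold threshold in limma, and likewise the unadjusted t-test with a 3-fold change, gave 0, 0, 2 and 0 in WT skin on days 1, 2, 4 and 6, and 0, 3, 4 and 0 in D6-deficient skin. Between genotypes both gave 2 on day 2, and for the change from day 0 they gave 2 on day 2 and 0 on day 4. From day 2 to 4 and day 4 to 6 both gave 1 and 2 in WT skin, and from day 1 to 2, 2 to 4 and 4 to 6 they gave 3, 0 and 6 in D6-deficient skin. The adjusted t-test gave 2 in WT skin on day 1, 0 in both genotypes on day 6, 0 between genotypes on day 2 and 0 for the change on day 4. For the steps it gave 0 and 4 in WT skin (day 2 to 4, day 4 to 6) and 4, 2 and 4 in D6-deficient skin. These thresholds ask for more than the adjusted limma p, and the cause of the other shifts was not tested.

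With 1 array left out, the count ranged from 1 to 4 in WT skin on day 1 (lowest without control replicate 1 or 2 or day 1 replicate 1), from 2 to 5 in WT on day 6 (highest without day 6 replicate 1) and from 1 to 4 in D6-deficient skin on day 6 (lowest without control replicate 3 or day 6 replicate 1 or 2). It ranged from 0 to 2 for the change on day 4 and from 0 to 2 from WT day 1 to day 2 (highest without day 2 replicate 3). Same-numbered samples did not deviate together, with correlations of -0.29 to 0.38 and all 3 over 0.1 in 1 of 19 contrasts. With the replicate block, 6 probe sets passed between genotypes on day 2, 7 for the change on day 2, 11 in WT skin on day 4 and 10 from WT day 2 to day 4, and 229 of 230 gene values kept their call.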
